A study of Mus musculus with 6 samples.

Results

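De novo lipogenesis makes fatty acids from citrate that leaves the mitochondrion, and desaturases then place double bonds into the products. ATP citrate lyase (Acly) releases acetyl-CoA from citrate, the acetyl-CoA carboxylases (Acaca and Acacb) make malonyl-CoA, fatty acid synthase (Fasn) assembles palmitate, and malic enzyme (Me1) supplies NADPH. Scd1 and Scd2 encode stearoyl-CoA desaturases, which make monounsaturated fatty acids such as oleate, and Fads1 encodes the delta-5 desaturase of polyunsaturated fatty acids. The transcription factors SREBP-1 (Srebf1) and ChREBP (Mlxipl) drive the pathway in response to insulin and glucose. Adipose tissue is a major site of this pathway in mice, and in thermogenic fat it is known to be active in the cold beside fatty acid oxidation.

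The levels of these 10 genes were examined in RNA-Seq data from iWAT, the inguinal depot of subcutaneous white fat. The genes were chosen by symbol for their known roles, and all 10 were among the 16538 genes listed. Of the 6 samples, 3 were controls, labelled wt and described in the study as fl/fl littermates, a name for the floxed Nrg4 allele. The other 3 were adipocyte-specific Nrg4 knockouts (AKO, labelled NRG4-AKO). Each sample held RNA pooled from 2 mice of its genotype, and both groups had been kept at 8°C, for 10 days by the labels, while the study's text gives a slightly longer time. Adiponectin-Cre acts in adipocytes, so that the other cells of the depot keep the gene. No samples from warm-housed mice were analysed here, and a response to cold cannot be read from these data. The ages of the mice are not given in the sources used here. The comparison asks whether the RNA of the lipogenic genes differed between cold-acclimated AKO and control iWAT.

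Values are read counts per gene divided by a size factor for each sample, called normalized counts below, and the samples had 17570335 to 18373707 reads on the listed genes. The targeted gene Nrg4 had 3128, 3102 and 3092 normalized counts in control replicates 1, 2 and 3 and 2577, 2627 and 2691 in AKO replicates 1, 2 and 3, a difference of -15.3% in the mean without overlap of the groups (limma adjusted p = 0.298). The count covers the whole gene and all cells of the depot. The exons that Cre removes in these mice are not given in the sources used here, so that the count does not show how complete the deletion was. By qPCR, the study reports Nrg4 mRNA as close to absent in AKO iWAT, and the reason for the unlike values was not tested. Ucp1, the uncoupling protein of brown and beige fat, differed by -1.75 on the log2 scale (SE 0.21), with an adjusted p of 0.0703 in limma and 1.97e-06 in DESeq2. All 8 general adipocyte markers examined, such as Adipoq and Fabp4, were detected in every sample, and they summed to 329469 to 359510.1 normalized counts in control and 303893 to 328086 in AKO. The 8 brown and beige adipocyte markers summed to 28859 to 41776 in control and 12436 to 15930 in AKO, and 6 of them were lower in AKO without overlap, against 8.31% of all tested genes. Because the samples are bulk tissue, fewer cells of a type and less RNA per cell cannot be told apart.

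Sequence around a transcription start is shown for 5 of the enzymes. Acly, Acaca, Fasn and Me1 shared the order of the control samples and the highest AKO sample, and Acacb is shown beside Acaca because their ratio was compared, as described below. The windows run from 250 bases before to 50 bases after a transcription start in RefSeq (GRCm38.p6), 5′ to 3′ on the strand of the gene. Capitals mark matches on either strand to the CCAAT box (CCAAT), the GC box (GGGCGG), the E-box (CACGTG) and a sterol regulatory element (TCACNCCAC).
Acly, chr11:100527951-100528250, minus strand: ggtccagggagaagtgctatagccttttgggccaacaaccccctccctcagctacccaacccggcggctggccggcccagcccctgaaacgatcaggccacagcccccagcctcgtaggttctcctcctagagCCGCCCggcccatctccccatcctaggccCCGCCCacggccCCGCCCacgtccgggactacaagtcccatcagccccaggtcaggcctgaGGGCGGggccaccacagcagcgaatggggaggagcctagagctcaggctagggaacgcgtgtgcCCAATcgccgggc
Acaca, chr11:84195188-84195487, plus strand: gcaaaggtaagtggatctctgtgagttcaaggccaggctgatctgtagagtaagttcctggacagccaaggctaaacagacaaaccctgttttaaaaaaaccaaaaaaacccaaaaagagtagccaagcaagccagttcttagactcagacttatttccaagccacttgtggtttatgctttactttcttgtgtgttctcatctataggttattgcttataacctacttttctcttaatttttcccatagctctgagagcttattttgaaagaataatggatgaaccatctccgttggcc
Acacb, chr5:114165268-114165567, plus strand: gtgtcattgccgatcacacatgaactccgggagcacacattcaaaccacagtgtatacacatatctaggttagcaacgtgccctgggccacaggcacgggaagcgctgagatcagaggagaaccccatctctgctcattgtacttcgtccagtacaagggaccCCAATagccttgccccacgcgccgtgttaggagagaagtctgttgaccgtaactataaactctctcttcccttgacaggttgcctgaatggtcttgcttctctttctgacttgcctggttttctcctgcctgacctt
Fasn, chr11:120824498-120824797, minus strand: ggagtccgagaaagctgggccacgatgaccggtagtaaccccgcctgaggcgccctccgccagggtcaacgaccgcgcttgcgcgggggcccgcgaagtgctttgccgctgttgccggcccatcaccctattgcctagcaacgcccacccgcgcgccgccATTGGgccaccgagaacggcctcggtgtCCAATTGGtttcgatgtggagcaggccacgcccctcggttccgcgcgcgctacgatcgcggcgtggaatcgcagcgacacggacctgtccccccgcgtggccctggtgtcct
Me1, chr9:86695865-86696164, minus strand: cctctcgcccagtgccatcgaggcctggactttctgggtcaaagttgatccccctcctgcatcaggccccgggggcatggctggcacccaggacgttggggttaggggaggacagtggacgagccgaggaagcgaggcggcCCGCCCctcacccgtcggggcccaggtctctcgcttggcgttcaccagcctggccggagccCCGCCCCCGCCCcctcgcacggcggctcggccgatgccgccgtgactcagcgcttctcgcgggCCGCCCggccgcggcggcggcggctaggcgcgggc
RefSeq windows were found for 7 of the 10 genes, 11 windows in all because some genes have several starts, and Scd1, Scd2 and Fads1 were not matched. The Fasn window held 3 CCAAT boxes, of which the 2 nearest the start overlap on opposite strands, and the Acly window held 4 GC boxes and 1 CCAAT box. The Acacb window held 1 CCAAT box, the Me1 window shown held 4 GC boxes, and the Acaca window held none of the 4 motifs. The Acaca and Acacb windows lie around starts inside these genes, whose annotations begin upstream at chr11:84129672 and chr5:114146535. They do not describe the sequence at the first annotated starts of Acaca and Acacb. Across the 11 windows, 7 held a CCAAT box, against 37.4% of 32851 mouse promoter windows of the same length, and 5 held a GC box, against 35.7%. The E-box was in 1 window (7.15% of all windows) and the sterol regulatory element was in 1 (1.24%), both belonging to Mlxipl. These matches describe the letters of the windows and are not measurements of factor binding.

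None of the 10 genes passed the threshold of an adjusted p under 0.05 in limma, in edgeR or in DESeq2. Over all genes, limma called 0.0144% of 13855 tested genes, edgeR called 0.0216% and DESeq2 called 0.998%. At an unadjusted p under 0.05 in limma, 1 of the 10 genes (Scd2) passed, against 9.1% of all tested genes. The groups did not overlap for 2 of the 10 genes, Scd2 and Srebf1, both higher in AKO, against 14.5% of all tested genes in either direction and 6.14% in that direction. The log2 fold change of AKO over control was above 0 for 8 genes and below 0 for Acacb and Mlxipl. Its median was 0.13 over the 10 genes and 0.0070 over all tested genes, with every gene within -0.29 to 0.49. The low number of calls in limma among all genes limits what the count of 0 can show, and the intervals below give the differences that remain compatible with each gene's spread.

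**Figure D1:**
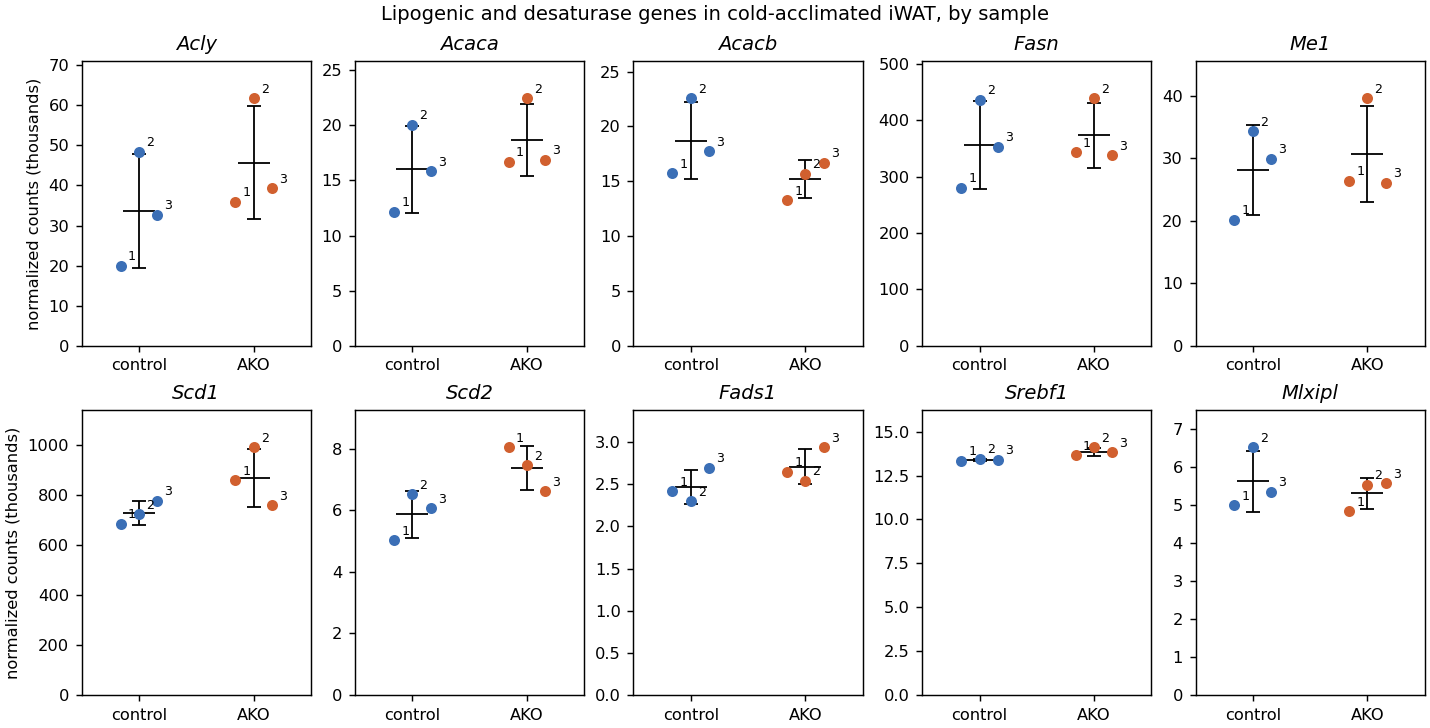
Normalized counts of the 10 genes in each sample (points, numbered by replicate), with the group mean and SD (n = 3 samples per group, each a pool of 2 mice), on linear axes that start at 0. Acly spread over 19934 to 48376 in control and 35899 to 61727 in AKO, while Srebf1 lay between 13338 and 14112 in all 6 samples.

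Acly (chr11:100476353-100528000, minus strand), which supplies cytosolic acetyl-CoA, had 19934, 48376 and 32728 normalized counts in control replicates 1, 2 and 3 and 35899, 61727 and 39327 in AKO replicates 1, 2 and 3. Control replicate 1 was the lowest of all samples and AKO replicate 2 the highest, and the groups overlapped. The means were 33679 ± 14245 and 45651 ± 14027 (SD, n = 3 each). The log2 fold change was 0.49 (SE 0.32, 95% interval -0.26 to 1.23, limma adjusted p = 0.709). Its spread within groups, an SD of 0.54 on the log2 scale, lay at the 94.1 percentile of tested genes. The control samples alone differed 2.43-fold. The log2 fold change of Acly fell to 0.16 without control replicate 1 and to 0.25 without AKO replicate 2, and was 0.80 without control replicate 2.

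Acaca (chr11:84129672-84401651, plus strand) encodes the cytosolic carboxylase whose malonyl-CoA feeds fatty acid synthesis. It had 12150.5, 20053 and 15816 normalized counts in control and 16706, 22450.1 and 16882 in AKO, again with control replicate 1 lowest and AKO replicate 2 highest. The log2 fold change was 0.24 (SE 0.19, 95% interval -0.20 to 0.68, limma adjusted p = 0.767). This fold change fell to 0.05 without control replicate 1 and to 0.10 without AKO replicate 2, and was 0.42 without control replicate 2. Acacb (chr5:114146535-114250761, plus strand) encodes the carboxylase at the mitochondrial surface, whose malonyl-CoA is known to restrain fatty acid import into mitochondria. Its samples had 15739, 22574 and 17758 normalized counts in control and 13261, 15701 and 16694 in AKO. The ranges overlapped only because control replicate 1 lay between AKO replicates 2 and 3. The log2 fold change of Acacb was -0.29 (SE 0.14, 95% interval -0.62 to 0.04, limma adjusted p = 0.599). With a sample left out, it ran from -0.40 (without control replicate 1) to -0.14 (without control replicate 2).

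A ratio of 2 genes within a sample does not depend on the size factors, and 3 pairs were compared in this way. For each 100 reads of Acaca, the control samples had 129.5, 112.6 and 112.3 reads of Acacb and the AKO samples had 79.4, 69.9 and 98.9. Every AKO sample thus lay below every control sample, with means of 118 ± 9.88 and 82.7 ± 14.8 (SD, n = 3 each) and a log2 difference of -0.53. The exact 2-sided permutation p was 0.1, the smallest that 3 samples against 3 allow, and 0.3 after adjustment over the 3 pairs. The level of a ratio includes the lengths of the 2 genes, so that the difference between groups can be read from it and not which carboxylase is more abundant.

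**Figure D2:**
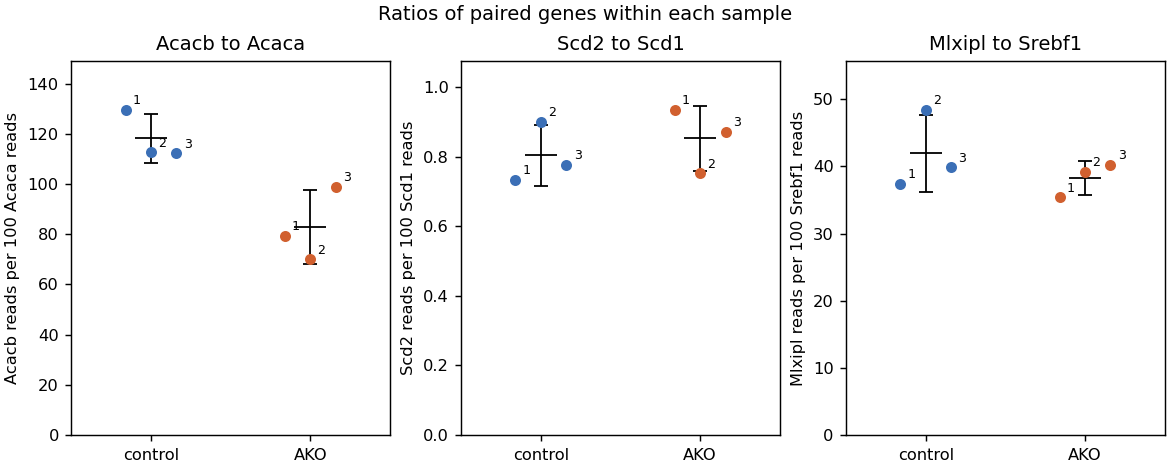
Ratios of normalized counts within each sample for Acacb to Acaca, Scd2 to Scd1 and Mlxipl to Srebf1, in reads of the first gene for each 100 reads of the second (points are samples, bars the mean and SD, n = 3 per group). The Acacb to Acaca ratio was 112.3 to 129.5 in control and 69.9 to 98.9 in AKO, and the groups overlapped for the other pairs.

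Fasn (chr11:120805846-120824547, minus strand) had 280298, 436504 and 353285 normalized counts in control and 342772, 438879.5 and 337472 in AKO. The highest control and the highest AKO sample were nearly level, and the groups overlapped. The log2 fold change was 0.08 (SE 0.21, 95% interval -0.41 to 0.57, limma adjusted p = 0.951). Me1 (chr9:86581371-86695953, minus strand) had 20209.7, 34364 and 29941 normalized counts in control and 26447, 39628 and 26096 in AKO. The AKO samples of Me1 lay on both sides of the control mean, with a log2 fold change of 0.13 (SE 0.23, 95% interval -0.39 to 0.65, limma adjusted p = 0.913). For Fasn and Me1, the direction turned when control replicate 1 or AKO replicate 2 was left out, to -0.08 and -0.05 for Fasn and to -0.09 and -0.07 for Me1. Of the exonic bases of Me1, 0.780% are shared with the antisense gene A330041J22Rik, and whether the counting used strand is not given in the sources used here.

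Scd1 (chr19:44394455-44407879, minus strand) was the most abundant transcript of all listed genes, both by normalized count and per kilobase of exon. It had 685134, 723256 and 778824 normalized counts in control and 859891, 992010.2 and 759122 in AKO. AKO replicates 1 and 2 lay above all controls, and AKO replicate 3 lay below control replicate 3. The means were 729072 ± 47115 and 870341 ± 116795 (SD, n = 3 each), with a log2 fold change of 0.25 (SE 0.21, 95% interval -0.23 to 0.73, limma adjusted p = 0.781). With a sample left out, the fold change ran from 0.15 (without AKO replicate 2) to 0.34 (without AKO replicate 3). As a share of the reads on listed genes, Scd1 took 3.87%, 3.83% and 4.23% in control and 4.87%, 5.65% and 4.32% in AKO, and on this scale the groups did not overlap. The authors' size factors gave each read less weight in the 3 AKO samples than in the 3 controls, and the scale therefore decides whether the Scd1 groups overlap.

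Scd2 (chr19:44293674-44306864, plus strand) had 5026, 6515 and 6053 normalized counts in control and 8039, 7461 and 6621 in AKO. All AKO samples lay above all control samples, and the nearest ones, control replicate 2 and AKO replicate 3, differed little. The means were 5864 ± 762 and 7373 ± 713 (SD, n = 3 each), and the log2 fold change was 0.33 (SE 0.11, 95% interval 0.08 to 0.59). The unadjusted p was 0.0177 and the adjusted p was 0.484 in limma, 0.443 in edgeR and 0.138 in DESeq2, so that the difference did not pass the correction. The direction held with each sample left out, at 0.23 to 0.41. Scd2 for each 100 reads of Scd1 was 0.734, 0.901 and 0.777 in control and 0.935, 0.752 and 0.872 in AKO, with overlap and an exact permutation p of 0.6 (0.6 adjusted over the 3 pairs). The desaturase genes are similar in sequence. In windows of 50 bases, 3.03% of the Scd1 transcript also occurs in Scd2 and 2.68% of Scd2 occurs in Scd1. Scd2 had under 1 read for each 100 of Scd1. Of the same Scd1 windows, 3.49% occur in Scd3 and 1.76% in Scd4. Scd3 had 7.71 to 24.4 normalized counts across the samples and Scd4 had 4.82 to 15.2, far below Scd2. How far reads of shared stretches entered the level of Scd2, or its difference between groups, was not tested.

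Fads1 (chr19:10182888-10196877, plus strand) had 2418, 2299 and 2696 normalized counts in control and 2650.4, 2541 and 2939.5 in AKO. Control replicate 1 was not the lowest control, unlike in the other 9 genes on this scale. The groups overlapped, and the log2 fold change was 0.13 (SE 0.08, 95% interval -0.06 to 0.33, limma adjusted p = 0.682). With a sample left out, this value ran from 0.07 (without AKO replicate 3) to 0.20 (without control replicate 3).

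Of the transcription factor genes, Srebf1 (chr11:60199089-60222581, minus strand) had 13338, 13465 and 13413 normalized counts in control and 13656, 14112 and 13832 in AKO. The groups did not overlap, with AKO higher by 3.44% in the mean, with a log2 fold change of 0.05 (SE 0.06, 95% interval -0.09 to 0.19, limma adjusted p = 0.866). Its spread within groups lay at the 0.130 percentile of tested genes, and the control SD of 64.0 was below the Poisson counting error of 117.6 at that mean, so that the SD understates the error. The counts sum all Srebf1 transcripts, and 3.11% of its exonic bases are shared with other genes, among them Rai1 on the opposite strand. RNA levels do not measure the processing of SREBP-1 that makes it active. Mlxipl (chr5:135089890-135138382, plus strand) had 4997, 6522 and 5356 normalized counts in control and 4842, 5533 and 5573 in AKO. The groups overlapped, with a log2 fold change of -0.08 (SE 0.11, 95% interval -0.33 to 0.17, limma adjusted p = 0.891), and 4.24% of its exonic bases are shared with the antisense gene Gm43500. The direction turned to 0.04 without control replicate 2. Mlxipl for each 100 reads of Srebf1 was 37.5, 48.4 and 39.9 in control and 35.5, 39.2 and 40.3 in AKO (exact permutation p = 0.5, 0.6 adjusted over the 3 pairs).

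**Figure D3:**
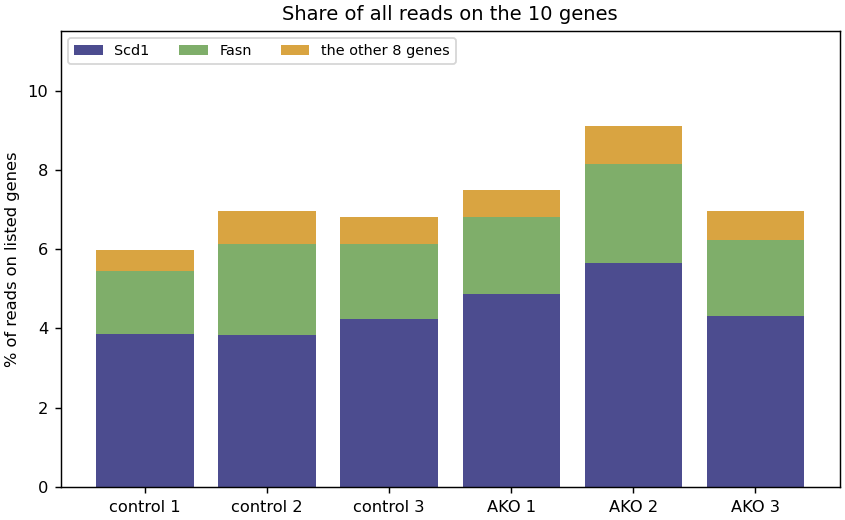
Share of the reads on listed genes, in percent, that fell on the 10 lipogenic and desaturase genes in each sample, stacked as Scd1, Fasn and the other 8 genes. The share was 5.99% to 6.95% in the control samples and 6.96% to 9.11% in the AKO samples.

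Per kilobase of exon, the genes differed widely in level. In control, Scd1 had 149033 ± 9631 normalized counts per kilobase (SD, n = 3), Fasn had 32584 ± 7140 and Me1 had 7321 ± 1882. Acly followed at 6380 ± 2698, within its spread of Me1, and Srebf1 (2379 ± 11.4) and Acacb (1941 ± 365) came next. Scd2 (1073 ± 139), Mlxipl (1016 ± 144) and Acaca (937 ± 232) lay within each other's spread, and Fads1 was lowest at 513 ± 42.3. The value of Acaca is lowered by its 17.1 kb of annotated exon, since its longest coding transcript has 9513 bases. Together, the 10 genes took 5.99%, 6.95% and 6.81% of the reads on listed genes in control and 7.50%, 9.11% and 6.96% in AKO. Scd1 and Fasn made up most of this, with 5.46%, 6.14% and 6.14% in control and 6.82%, 8.14% and 6.23% in AKO.

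**Figure D4:**
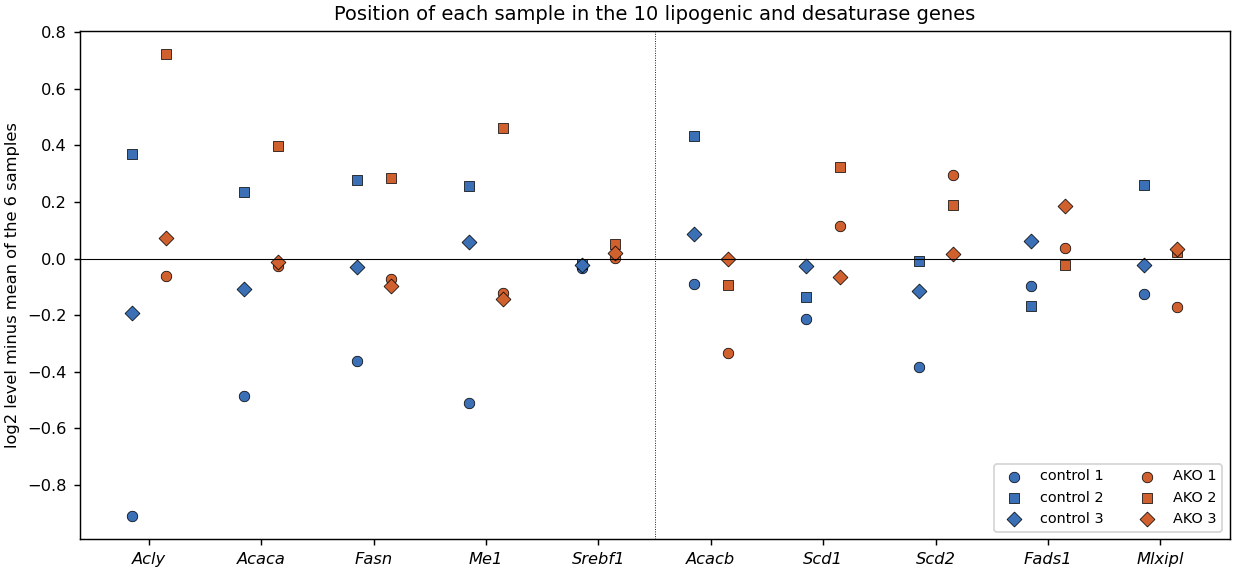
Log2 level of each gene in each sample minus the mean of the 6 samples for that gene (blue, control, and orange, AKO, with a symbol for each replicate). Left of the dotted line are the 5 genes in which control replicates ranked 1, 3, 2 from lowest to highest and AKO replicate 2 was the highest AKO sample.

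Several of the genes placed the samples alike within the groups, an order that was noticed after the values were seen. Control replicate 1 was the lowest control for 9 of the 10 genes, against 5234 of 13855 tested genes. The full control order of 1, 3 and 2 from lowest to highest held for 8 of 10, against 21.3% of all tested genes. AKO replicate 2 was the highest AKO sample for 6 of 10, against 34.4%. Acly, Acaca, Fasn, Me1 and Srebf1 had both, as did 6.37% of all tested genes. Among 52 other genes of the pathway, 10 had both (19.2%), including Tkt, Pgd and Taldo1 of the pentose phosphate pathway, the acetyl-CoA synthetase gene Acss2, the citrate carrier gene Slc25a1, Elovl6 and Fads2. Genes of 1 sample are not independent of each other, and these shares carry no test. The order depends in part on the scaling. With samples scaled to total reads, control replicate 1 was lowest for 7 of the 10 genes, not for Scd1, Fads1 or Srebf1, against 3602 of 13855 tested genes. The full control order then held for 7 of 10, against 12.9% of all tested genes. Both features then held for Acly, Acaca, Fasn and Me1 and no longer for Srebf1, against 3.83% of all tested genes and 9 of the 52 pathway genes (17.3%).

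The samples also differed in markers of other tissues. Across control replicates 1, 2 and 3, 12 skeletal muscle markers summed to 177, 26068 and 14073 normalized counts, and across AKO replicates 1, 2 and 3 to 19150.5, 73173 and 112299.9. The log2 fold change of AKO over control was above 0 for 9 of these markers and below 0 for 3, Myh1, Myh2 and Mb. The 10 mammary epithelial markers listed summed to 752, 48.4 and 1798 in control and 269, 2646 and 916 in AKO, and Krt5, Krt8, Krt14 and Epcam were at 0 in control replicate 2. Control replicate 2 was the highest control for Acly, Acaca, Fasn and Me1. The 6 lymphocyte markers listed summed to 761, 102 and 89.5 in control and 125, 1100.3 and 93.5 in AKO, and 7 macrophage markers to 8711.5 to 12253.5 in control and 10841 to 14589 in AKO. The control order of the muscle sums was the same as that of the lipogenic genes, while the highest AKO muscle sum was in replicate 3 and not replicate 2. The part of these tissues in the results was not tested.

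**Figure D5:**
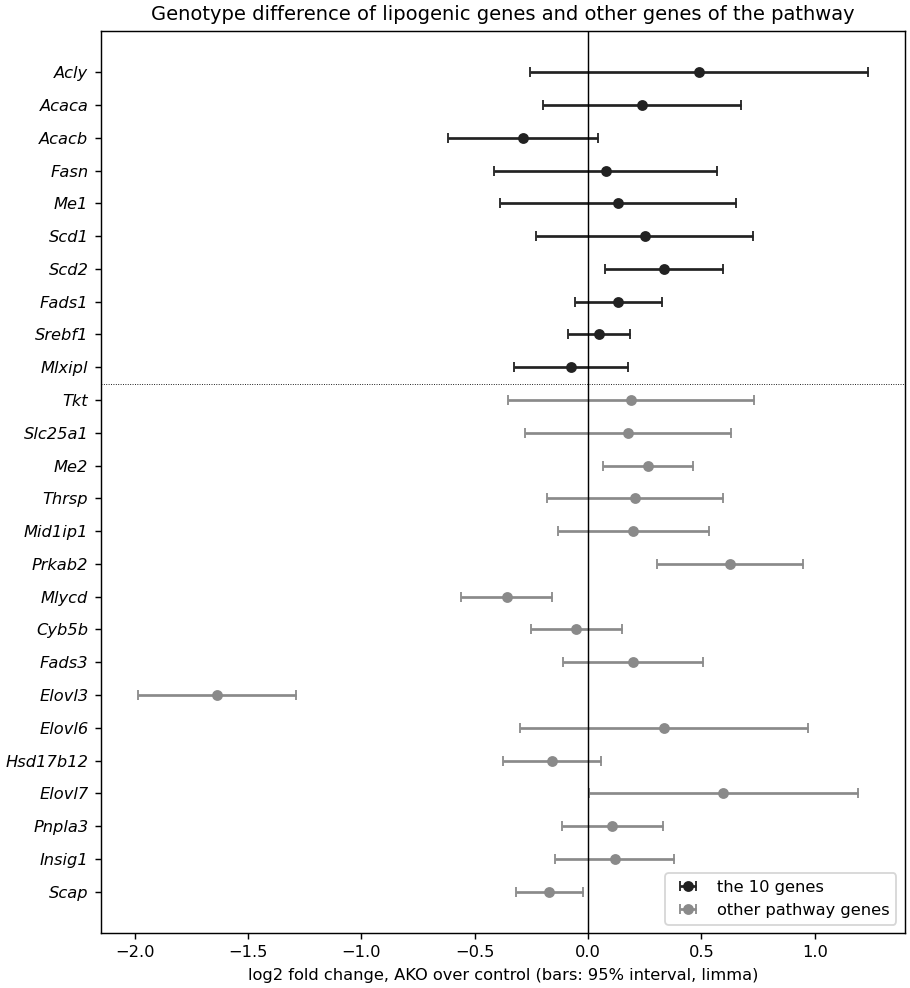
Log2 fold change of AKO over control with its 95% interval (limma, n = 3 samples per group) for the 10 genes and for other named genes, where 0 means equal levels. Among the 10 genes, the interval of Scd2 (0.08 to 0.59) lay above 0 and the other 9 included 0, while Elovl3 lay far below 0.

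Other genes of fatty acid synthesis, elongation and their control were taken from 5 lists of 55 genes, of which 54 were listed and 52 tested. Elovl3 was called lower by limma (0.00722% of all tested genes were called lower) and no gene was called higher, 7 passed an unadjusted p under 0.05 in limma, and the log2 fold change was above 0 for 25 genes and below 0 for 27, with a median of -0.01. The groups did not overlap for 4 genes higher in AKO (6.14% of all tested genes) and 4 lower (8.31% of all tested genes).

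Of 11 genes that supply substrate and NADPH, 6 had a fold change above 0 and 5 below 0, and none was called. The transketolase gene Tkt had 30679, 55168 and 44835 normalized counts in control and 39918, 62119 and 45314 in AKO (log2 fold change 0.19, SE 0.23, limma adjusted p = 0.870). Slc25a1, which carries citrate out of mitochondria, had 18241, 32867 and 27349 in control and 26726, 31173 and 28377 in AKO (log2 fold change 0.18, limma adjusted p = 0.845). Both overlapped between groups. The mitochondrial malic enzyme gene Me2 did not overlap, with 338, 342 and 386 in control and 427, 445 and 407 in AKO (log2 fold change 0.26, limma adjusted p = 0.469).

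Of 10 genes tested for synthase partners and the control of malonyl-CoA, 4 had a fold change above 0 and 6 below 0, and none was called by limma. Thrsp, a lipogenic regulator also known as Spot 14, had a log2 fold change of 0.21 (SE 0.17, limma adjusted p = 0.775), and its relative Mid1ip1 had 0.20 (SE 0.14, limma adjusted p = 0.734). Without control replicate 1 the fold change of Thrsp was 0.01. Mlycd, which degrades malonyl-CoA, had 1151, 1371 and 1134 normalized counts in control and 956, 906 and 979.5 in AKO. All AKO samples of Mlycd lay below all controls (log2 fold change -0.36, SE 0.09, adjusted p = 0.316 in limma and 0.0617 in DESeq2). Prkab2, a regulatory subunit of the AMP-activated kinase that inhibits the carboxylases, had 232, 258 and 287 in control and 326.5, 445 and 435 in AKO. All AKO samples of Prkab2 lay above all controls (log2 fold change 0.63, SE 0.14), with an adjusted p of 0.304 in limma and 0.0185 in DESeq2. Skeletal muscle also expresses Prkab2, and the muscle marker sums given above were highest in AKO replicates 2 and 3, as was Prkab2. The orders differed elsewhere. Control replicate 2 had a higher muscle sum than AKO replicate 1 and fewer Prkab2 counts. Among controls, Prkab2 was highest in replicate 3 and the muscle sum in replicate 2. The part of muscle tissue in this result was not tested.

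None of the 7 other desaturase and electron donor genes was called, 2 had a fold change above 0 and 5 below 0, and no gene of this list was without overlap. Fads3 had a log2 fold change of 0.20 (SE 0.13, limma adjusted p = 0.717) and the cytochrome gene Cyb5b had -0.05 (SE 0.09, limma adjusted p = 0.910).

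Among 10 elongation genes tested, 3 had a fold change above 0 and 7 below 0. Elovl3, an elongase of very long chain fatty acids that is abundant in brown fat and is also in the brown and beige marker list, had 949, 1327 and 948 normalized counts in control and 326.5, 307 and 393 in AKO. The groups were far apart, with a log2 fold change of -1.64 (SE 0.15, limma adjusted p = 0.0350). Leaving out any sample but control replicate 2 raised the adjusted p of Elovl3 in limma above the threshold, to 0.0929 to 0.117, while its log2 fold change was -1.74 to -1.56 in those fits. Elovl6, which elongates palmitate, the product of Fasn, had 8239, 15342 and 12063 in control and 12091, 21218 and 11931 in AKO (log2 fold change 0.34, SE 0.28, limma adjusted p = 0.776). Its fold change fell to 0.06 without AKO replicate 2 and to 0.09 without control replicate 1. The fold changes of Elovl3 and Elovl6 lay on opposite sides of 0, and the difference between them was not tested. Hsd17b12 had a log2 fold change of -0.16 (SE 0.09, limma adjusted p = 0.662), and Elovl7, at 22.6 to 27.4 normalized counts in control and 31.8 to 51.7 in AKO, had 0.60 (SE 0.26, limma adjusted p = 0.540).

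Of 14 regulators tested, 10 had a fold change above 0 and 4 below 0, and none was called. Scap, which escorts SREBP proteins to the Golgi, had 1031, 1127 and 1104 normalized counts in control and 989, 941 and 963 in AKO, lower without overlap (log2 fold change -0.17, SE 0.06, limma adjusted p = 0.506). Insig1, which retains that complex in the endoplasmic reticulum, had a log2 fold change of 0.12 (SE 0.11, limma adjusted p = 0.819). Pnpla3, a known target of both SREBP-1 and ChREBP, had 0.11 (SE 0.10, limma adjusted p = 0.803).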

How the data were processed

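Expression was measured by RNA-Seq in iWAT of cold-acclimated mice, with 3 control and 3 AKO samples grouped by the genotype in their labels. Per the submitters' processing notes, FastQC, STAR, DESeq2 and mm10 were used. Reads were counted per gene with featureCounts on a GENCODE annotation, per the study's methods. The signal that the authors deposited is the count of a gene after division by a size factor from DESeq2, with no correction for gene length. Columns with the log2 fold changes and p-values of the authors' own comparison were also deposited and were not used.

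Dividing by the value of a single read gave whole reads for 100% of the values (tolerance 0.01). Genes with a mean of at least 10 (13855 genes) were compared with limma (version 3.58.1, R 4.3.3) on log2(value + 1) with a variance trend. The design foresaw this for normalized counts. An adjusted p under 0.05 (Benjamini-Hochberg over all tested genes) was the threshold. A log2 fold change on this scale understates the change of low genes. edgeR (4.0.16) and DESeq2 (1.42.0) on the recovered reads were alternatives, among 19 settings. Single values were compared by exact permutation (2-sided), where 3 against 3 gives 0.1 at the least. Nothing in the labels says that the pools are separate cohorts, and p-values measure the spread between these pools.

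The genes and lists were chosen with earlier results of these data known. Named genes were the 10 genes and, from each list, those called, the 2 with the highest mean and the 2 with the largest change without overlap, with Nrg4 and Ucp1 as references. Positions and exon lengths are from GENCODE M21 (GRCm38), an earlier release than that named for the counting. The scripts were tested on simulated data.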

Additional observations from a re-analysis of the deposited data

How the results depend on the processing

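No call among the 10 genes changed under any of the 19 alternatives, in which 0 of 10 passed the threshold. Few genes were called at all in most settings. Over all genes, DESeq2 called 149 and the other alternatives called 0 to 11, with 0 in each fit without an AKO replicate. The count of 0 of 10 under the alternatives therefore shows little about these genes. Of 190 values for these genes, 185 kept their direction and 5 turned, all 5 in fits with a sample left out. Several settings, such as robust shrinkage and the replicate block, leave the log2 fold change as it was and could not turn it. With a sample left out, the log2 fold change ran from -0.0848 (without control replicate 1) to 0.2347 for Fasn, -0.0904 (without control replicate 1) to 0.2926 for Me1 and -0.1560 to 0.0362 (without control replicate 2) for Mlxipl. Fasn and Me1 also turned without AKO replicate 2, to -0.0453 and -0.0659. Tkt ran from -0.0435 to 0.3797 and Slc25a1 from -0.0630 to 0.3618, both lowest without control replicate 1. Cyb5b ran from -0.1049 to 0.0215 and was at 0.0069 with scaling to total reads, an alternative chosen after seeing the data. The cause was not tested. The values of Acly, Acaca, Acacb, Scd1, Scd2, Fads1, Thrsp and Elovl6 without 1 sample are given beside their results. With a sample left out, Insig1 ran from 0.0156 to 0.2472 and Pnpla3 from 0.0304 to 0.1964. In those fits Mid1ip1 ran from 0.0815 to 0.3378 and Hsd17b12 from -0.2429 to -0.0609, and these genes kept their direction. The median of the 10 genes was 0.05 to 0.24 with a sample left out. The number of the 10 genes without overlap was 2 with all samples, against 14.5% of all tested genes. It was 2 to 4 with a sample left out (4 without control replicate 2, control replicate 3 or AKO replicate 3, where fewer samples make overlap rarer) and 3 with scaling to total reads. The share of all tested genes in these other settings was not measured, so that their counts cannot be set against a background. Of the other pathway genes, 1 was called by limma and 2 by DESeq2 (Elovl3 and Prkab2), and 0 to 1 with a sample left out. With the replicate number as a block, 0 were called, with an adjusted p of 0.0529 for Elovl3 in limma. Equal numbers mark pools of different mice, whose deviations from their group means correlated at 0.14, -0.35 and 0.24. Pools of unlike number correlated at -0.50 to 0.34. With 3 pools per group, these values cannot show whether equal numbers share anything beyond the number, and the labels do not say. The block changed no call among the 10 genes. With 3 pools per group, the intervals of Acly, Acaca, Acacb, Fasn, Me1, Scd1 and Scd2 include differences of over 0.5 in size on the log2 scale, and those of Fads1, Srebf1 and Mlxipl do not.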
